A study of Rattus norvegicus with 9 samples.

Results

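Hedgehog ligands and their targets were examined in rat bladder after partial obstruction of the outlet, with and without tolterodine. The set holds 9 genes, selected on these same arrays with earlier results of the data known: the ligands Ihh and Shh, the receptor Ptch1, the transducer Smo, the transcription factors Gli1, Gli2 and Gli3, the ligand-binding inhibitor Hhip and the stromal signal Bmp4. Probes were matched through their accessions, which gave 10 probes of 30367 for 8 of the 9 genes, each probe spotted once per array. No probe matched Hhip, and its level was not analysed here. The probe of Gli3 was too dim for the fit, so 7 of the 9 genes entered it, among 11049 genes in all. Because the genes were chosen with their values known, their levels and differences are given as a description, with the spread between arrays and no test.

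Bladder RNA of female rats was labelled with Cy3 and hybridised to 9 single-colour arrays, 3 in each of 3 groups, all at 3 weeks. Sham rats had the operation without the tie. Rats with partial bladder outlet obstruction (pBOO) had the proximal urethra tied over a catheter. The third group had the same obstruction and was given tolterodine, which blocks muscarinic acetylcholine receptors and is used against an overactive bladder. No group received tolterodine without obstruction, and no strain, age or dose was given in the sources used here. The labels name 5 bladders examined per group but do not tell whether an array holds 1 animal or a pool, so p-values measure only the spread between these arrays. The treatment protocol and the sample codes use opposite letters for obstruction and sham. The titles were followed. If the names of these groups were exchanged, every difference between pBOO and sham would change sign and the comparisons of the tolterodine group would trade places.

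Hedgehog ligands are secreted proteins. They bind the membrane receptor Ptch1, which in the absence of ligand keeps the transducer Smo inactive. Active Smo acts through the primary cilium on the Gli transcription factors, and Gli1, Ptch1 and Hhip are themselves induced by the pathway, so their transcripts serve as its usual readout. In the adult bladder Shh is known as a product of basal urothelial cells that acts on Gli1-expressing cells of the stroma beneath, and those cells answer with Wnt and BMP signals to the urothelium. Ihh is the ligand best known from cartilage and gut epithelium.

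The arrays' 75th percentile of signal ran from 523 to 1441 intensity units and the share of spots well above background from 72.1% to 80.1%. Levels are log2 signals minus the array's 75th percentile, so a level of 0 is that percentile and a level of -4 lies 4 doublings below it. Levels of different probes were not set against each other. The marker sums below do add signals of different probes, so bright probes weigh most in them. The urothelial markers Krt18 and Upk1b and the smooth muscle actin Acta2 were well above background on every array, and no marker list had a summed gene at background on all arrays. Headers show 3 scans. The first holds sham 1 and the 3 pBOO arrays, the second sham 2, sham 3 and tolterodine 1 and 2, and the third tolterodine 3, so no scan holds both pBOO and tolterodine arrays.

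Ihh had the widest range of the set and was lowest with tolterodine. Its brighter probe (A_43_P15154, accession NM_053384) was well above background on all 9 arrays. The sham levels were -1.70, 0.75 and 0.35, the pBOO levels 0.37, 0.85 and 0.65, and the levels with tolterodine -3.78, -4.46 and -3.10. In intensity units, the pBOO arrays read 1870, 1860 and 1490, and the tolterodine arrays 65.6, 49.0 and 61.0. The 3 tolterodine arrays thus lay below all 6 others, while sham and pBOO overlapped and sham 1 stood apart from the other sham arrays.

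The mean level of Ihh was -0.20 ± 1.32 in sham, 0.63 ± 0.24 in pBOO and -3.78 ± 0.68 with tolterodine (SD, n = 3 each). Against pBOO the tolterodine group was lower by 4.40 (SE 0.59), a 21.2-fold difference that had rank 42 by size among 11049 genes. Against sham it was lower by 3.58 (SE 0.59), a 12.0-fold difference at rank 16. Normexp is a background correction that models signal and local background together, and an offset of 50 units was added with it. With normexp these differences were -3.44 and -2.69, and with the mean of both Ihh probes -3.79 and -2.56. Across the 9 arrays the level of Ihh spanned 5.31, more than 99.4% of genes. The difference of 0.82 (SE 0.59) between pBOO and sham was 0.07 without sham 1, and 2.33 within the first scan, where sham 1 is the sole sham array.

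The dimmer Ihh probe (A_64_P065081) read -7.80, -5.50 and -6.09 in sham, -5.32, -4.28 and -4.87 in pBOO, and -7.72, -7.79 and -8.52 with tolterodine. It was well above background on 1 sham array, on all 3 pBOO arrays and on no tolterodine array. The pBOO arrays were again above the tolterodine arrays, at least 1.99-fold. For such a bound, each array of the dim group is given the probe's level or, if higher, the smallest level that counted as well above background on it, and the mean of these is set against the bright group's mean. Here the pBOO arrays also lay above every sham array, which the brighter probe did not show.

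**Figure D1:**
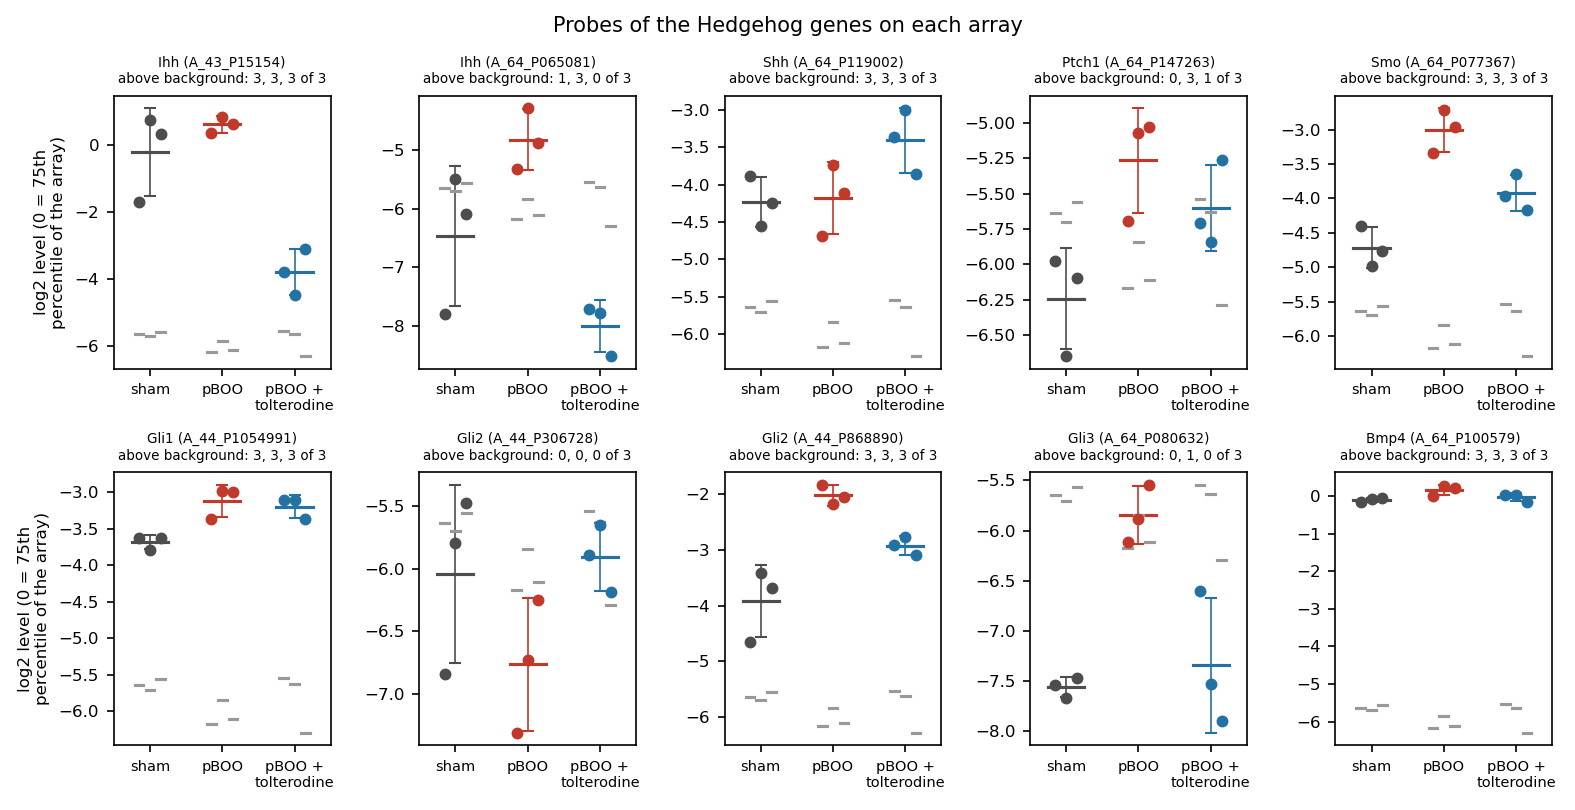
Log2 level of each of the 10 probes of the Hedgehog genes (y axis, 0 is the array's 75th percentile) on the 3 arrays of each group (x axis); points are arrays, horizontal lines group means, bars the SD and grey dashes the lowest level called well above background on that array. The tolterodine arrays of Ihh lie between -4.46 and -3.10, below all others, whereas Smo and Gli2 (A_44_P868890) are highest in pBOO and intermediate with tolterodine.

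Shh, the ligand of the basal urothelium, did not follow Ihh. Its probe (A_64_P119002, NM_017221) read -3.89, -4.55 and -4.25 in sham, -4.69, -3.74 and -4.11 in pBOO, and -3.37, -3.00 and -3.86 with tolterodine, well above background on all arrays. Sham and pBOO overlapped, with a difference of 0.05 (SE 0.30) that was -0.10 with quantile scaling. The tolterodine arrays were above every sham array, by 0.82 (SE 0.30), and overlapped with pBOO, where the difference was 0.77 (SE 0.30). Within the second scan the difference between tolterodine and sham was 1.22. The tolterodine mean was therefore the highest of the 3 groups for Shh and the lowest for Ihh. For Shh the difference of tolterodine from sham was 0.51 with quantile scaling and 0.32 with normexp.

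Ptch1, receptor and target at once, was near the background of the arrays. The probe (A_64_P147263, NM_053566) read -5.98, -6.65 and -6.10 in sham, -5.69, -5.07 and -5.03 in pBOO, and -5.71, -5.84 and -5.26 with tolterodine. It was well above background on no sham array, on all 3 pBOO arrays and on 1 tolterodine array. Each pBOO level exceeded each sham level, with means of -5.26 ± 0.37 and -6.24 ± 0.36 (SD, n = 3 each). This gives at least a 1.29-fold higher level in pBOO than in sham. Readings with tolterodine lay near the limit of detection and give no fold. Between tolterodine and pBOO the arrays overlapped, with a difference of -0.34 (SE 0.25). The direction depended on the processing. With normexp the difference in readings of 0.98 between pBOO and sham became -0.13. That between tolterodine and sham became -0.04, and that between tolterodine and pBOO 0.09. The probe's processed signals were 8.19 to 12 units in sham and 27.9 to 30.8 in pBOO. The offset of 50 units added with normexp exceeds them, so the normexp values do not decide the direction.

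Ptch1 is the textbook direct Gli target, and its upstream sequence is shown for that reason. RefSeq windows around gene starts (GRCr8, 250 bases before to 50 bases after the start) were found for 6 of the 9 genes: Ptch1, Smo, Gli2, Gli3, Hhip and Bmp4. The Gli consensus TGGGTGGTC was searched on both strands, exactly and with 1 mismatch. An exact copy occurs in 129 of 33469 windows (0.385%), and a copy with up to 1 mismatch in 2452 (7.33%). Of the 6 windows the one of Ptch1 holds an exact copy, on the plus strand, beginning 172 bases before the start. In the windows of Smo, Gli2, Gli3, Hhip and Bmp4 these letters were not found, also with 1 mismatch. The windows of Ptch1 and Bmp4 lie at starts inside the annotated genes, and the other 4 at the gene's own start. The annotated Ptch1 gene itself opens at position 1548449 of chromosome 17, before its window. The match is a description of the letters, not of binding. The 250 bases before the start, at chr17:1555321-1555570 on the plus strand of GRCr8, read 5′ to 3′ as follows, with the consensus in capitals.
Ptch1 upstream: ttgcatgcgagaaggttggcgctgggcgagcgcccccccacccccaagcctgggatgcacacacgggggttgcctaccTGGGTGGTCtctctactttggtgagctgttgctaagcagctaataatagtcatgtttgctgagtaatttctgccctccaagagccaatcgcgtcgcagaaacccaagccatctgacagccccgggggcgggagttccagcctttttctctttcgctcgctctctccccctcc

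Smo, the seven-pass protein that carries the signal inward, was higher in obstruction. The probe (A_64_P077367, NM_012807) read -4.40, -4.98 and -4.76 in sham, -3.34, -2.71 and -2.96 in pBOO, and -3.96, -3.65 and -4.17 with tolterodine, well above background on all arrays. The 3 groups did not overlap, with pBOO highest, tolterodine between and sham lowest. The pBOO mean was 1.71 (SE 0.22) above sham, a 3.28-fold difference. The tolterodine mean was 0.93 (SE 0.22) below pBOO, a 1.90-fold difference, and 0.78 (SE 0.22) above sham, a 1.72-fold difference. With normexp the differences kept their signs at 0.65, -0.38 and 0.27.

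Gli1, whose transcript depends on pathway activity, differed less. The probe (A_44_P1054991, NM_001191910) read -3.62, -3.79 and -3.63 in sham, -3.37, -2.98 and -2.99 in pBOO, and -3.10, -3.11 and -3.37 with tolterodine, well above background on all arrays. Every obstructed array, with or without the drug, was above every sham array. The difference from sham was 0.57 (SE 0.14) for pBOO, 1.48-fold, and 0.49 (SE 0.14) for tolterodine, 1.40-fold. Tolterodine and pBOO overlapped, with a difference of -0.08 (SE 0.14). With normexp these values were 0.14, 0.26 and 0.12, so the last changed sign.

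Gli2, the main activator of the pathway upstream of Gli1, had, with Smo, the largest difference between pBOO and sham of the set. The probe used in the fit (A_44_P868890, NM_001107169) read -4.66, -3.42 and -3.68 in sham, -1.82, -2.18 and -2.05 in pBOO, and -2.91, -2.76 and -3.09 with tolterodine. The 3 groups did not overlap, and sham 1 was the lowest array. The pBOO mean was 1.90 (SE 0.29) above sham, a 3.74-fold difference, and 2.64 above it within the first scan. The tolterodine mean was 0.91 (SE 0.29) below pBOO and 1.00 (SE 0.29) above sham. Without sham 1 these differences from sham were 1.53, below the 1.87 of Smo, and 0.63, and with normexp the 3 differences were 1.09, -0.61 and 0.48. A second Gli2 probe (A_44_P306728) was not well above background on any of the 9 arrays, with levels between -7.31 and -5.48, and gives no fold.

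Gli3, which mostly acts as a repressor, was at background on nearly all arrays. The probe (A_64_P080632, NM_080405) read -7.54, -7.67 and -7.47 in sham, -6.11, -5.88 and -5.54 in pBOO, and -6.60, -7.53 and -7.90 with tolterodine. It was well above background on pBOO 3 alone, so the higher readings of the pBOO arrays give no fold. With 1 array Gli3 missed the filter of 3 arrays well above background, and Ptch1, with 4, passed it through its pBOO arrays.

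Bmp4, a growth factor that Hedgehog signals induce in the bladder stroma, had the narrowest range of the set. The probe (A_64_P100579, NM_012827) read -0.16, -0.09 and -0.06 in sham, 0.00, 0.27 and 0.21 in pBOO, and 0.03, 0.02 and -0.16 with tolterodine. These 9 levels spanned 0.43, more than only 5.80% of genes. The pBOO arrays were above the sham arrays by 0.27 (SE 0.11), 1.20-fold. Tolterodine overlapped with pBOO (-0.20, SE 0.11) and with sham (0.07, SE 0.11), and the last difference was -0.07 when arrays were scaled on their median.

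**Figure D2:**
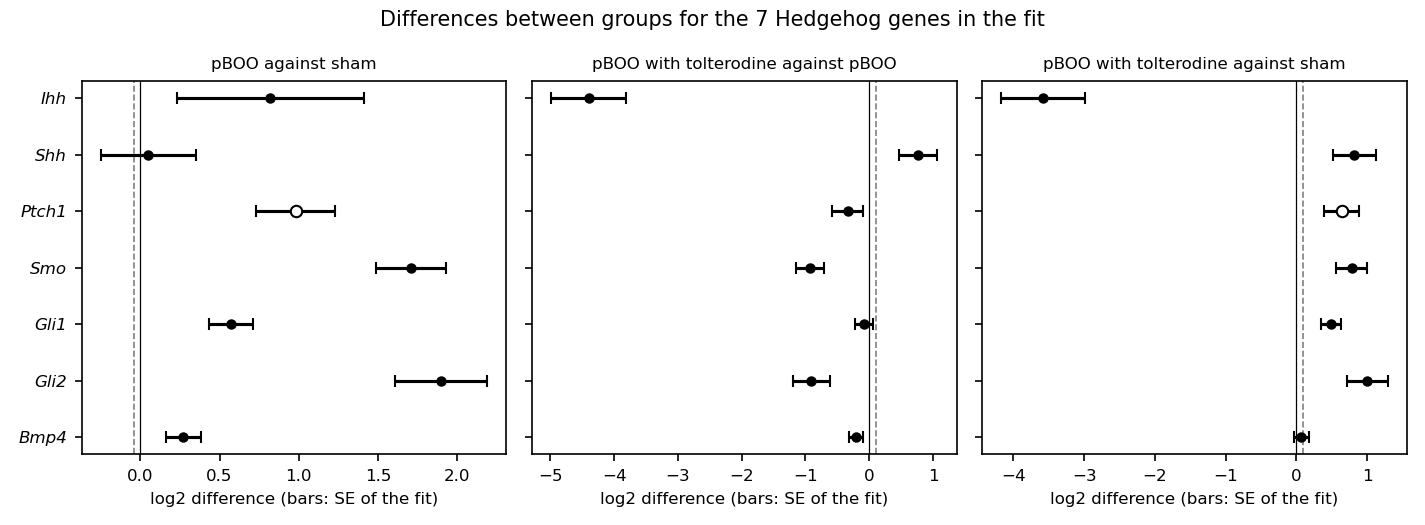
Log2 difference (x axis) for each comparison of groups in the 7 Hedgehog genes of the fit (y axis); points are differences of group means over 3 arrays each, bars the SE of the fit, open points Ptch1 where the sham group was below background, and the dashed line the median of all genes. Between pBOO and sham Gli2 (1.90) and Smo (1.71) lie farthest right, and Ihh lies at -4.40 and -3.58 in the comparisons with tolterodine.

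Between pBOO and sham, 5 of the 7 genes were higher with no overlap of arrays (Ptch1, Smo, Gli1, Gli2 and Bmp4), none was lower in that sense, and 2 overlapped, beside 55.7% of all genes whose groups did not overlap in either direction. The median difference of the 7 was 0.82 and that of all genes -0.04. Between tolterodine and pBOO, 3 were lower (Ihh, Smo and Gli2), 0 were higher and 4 overlapped, beside 58.7% of all genes, and the median was -0.34 against 0.11. Between tolterodine and sham, 5 were higher (Shh, Ptch1, Smo, Gli1 and Gli2), Ihh alone was lower and Bmp4 overlapped, beside 43.1% of all genes, and the median was 0.64 against 0.09. The genes were chosen with these contrasts known, so nothing is read from their counts, and the comparisons share arrays. Scaling arrays on their median shifted the median of all genes between tolterodine and sham from 0.09 to -0.05, and under it the differences of Smo, Gli1, Gli2 and Shh from sham were 0.65, 0.35, 0.86 and 0.68.

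The genes whose levels ran most like those of each member over the 9 arrays were taken among 10099 other genes by Pearson's r, as a description, since group and scan shape all of them. For Ihh these were Sptlc3 (r = 0.994), a subunit of the enzyme that opens sphingolipid synthesis, Enpp4 (r = 0.992), of the nucleotide pyrophosphatase family, and Krt20 (r = 0.990), the keratin of the umbrella cells on the surface of the urothelium. Krt20 read -1.94, 1.31 and 1.05 in sham, 0.26, 1.49 and 1.05 in pBOO, and -4.02, -4.32 and -3.77 with tolterodine. Sham 1 was again low and the 3 tolterodine arrays lay below all others, as with Ihh. Sptlc3 was between -5.20 and -4.70 with tolterodine and between -3.98 and -2.25 on the other arrays, and Enpp4 between 0.76 and 0.88 against 1.03 to 1.45.

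**Figure D3:**
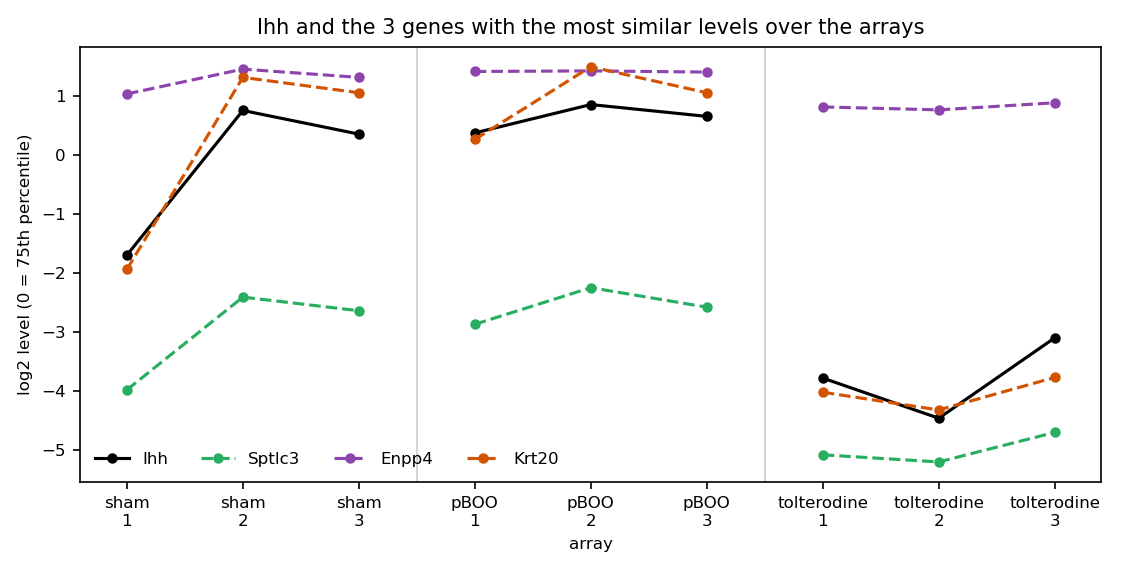
Log2 level (y axis, 0 is the array's 75th percentile) of Ihh and of the 3 genes with the highest r to it on each of the 9 arrays (x axis); lines join arrays of a group for the eye and do not mark an order. Ihh, Krt20, Sptlc3 and Enpp4 are all lowest on the 3 tolterodine arrays, and lower on sham 1 than on the other sham arrays.

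For the remaining members the likeness was of the same size, with other genes. Shh was matched by Txndc12 (r = 0.978), Myo1e (0.970), an unconventional myosin, and Casp9 (0.967), an initiator caspase. Ptch1 was matched by Nfyc (0.968), Mideas (0.957) and the T-box factor Tbx3 (0.952). The closest to Smo were Sike1 (0.993), Gtpbp2 (0.993) and the Golgi mannosidase Man1a1 (0.992), and to Gli2 Dock11 (0.995), the transcription factor Klf9 (0.991) and C1ql3 (0.985). Klf9 read -3.65, -2.24 and -2.50 in sham, -0.93, -1.40 and -1.14 in pBOO and -2.03, -1.90 and -2.05 with tolterodine, so it was also lowest on sham 1 and highest in pBOO. Gli1 was matched by Kiaa1328 (0.970) and Gosr1 (0.965), both dim, on 6 and 3 arrays well above background, and by Bfar (0.964). Bmp4 was matched by Eef2k (0.967), Atp9b (0.958) and the chromatin remodeller Chd2 (0.955).

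The rest of the pathway was read from a list of 110 other genes of Hedgehog and BMP signalling, none of them a member, with the test across all genes (limma, Benjamini-Hochberg adjusted p under 0.05). Of these, 76 were in the fit, 8 were too dim, 1 was lost to flagged spots and 25 had no matched probe. This list, too, was chosen with earlier results of these data known, so its shares beside those of all genes are a description. Some of the genes counted, such as Evc, Dync2h1 and Rpgrip1l, passed the filter through their pBOO arrays. Between pBOO and sham 29 of the 76 rose (38.2%, against 20.8% of all genes) and 11 fell (14.5%, against 21.7%). The median difference was 0.32 for the list and -0.04 for all genes. Between tolterodine and pBOO 11 rose (14.5%, against 26% of all genes) and 26 fell (34.2%, against 15.3%), with medians of -0.29 and 0.11. Between tolterodine and sham 16 rose (21.1%, against 17.8%) and 4 fell (5.26%, against 6.59%), with medians of 0.12 and 0.09. With arrays scaled on the median, that last split was 12 against 10, and with quantile scaling 11 against 9. The same shares of all genes apply to the counts by group of function below.

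Among ligands and their release, 3 of 7 genes were in the fit. Dhh, the third Hedgehog ligand, was at 1.40 ± 0.23 in sham, 1.17 ± 0.27 in pBOO and 1.46 ± 0.01 with tolterodine (SD, n = 2 in sham and with tolterodine, where flagged spots were dropped, and n = 3 in pBOO), and passed the test in no comparison. Disp1, which releases the lipid-bearing ligand, did not pass either, with differences of 0.04, -0.37 and -0.34. Scube1, a carrier of the released ligand, fell by 0.93 between pBOO and tolterodine (SE 0.23, limma adjusted p = 0.0125). Among receptors and co-receptors 3 of 8 were in the fit. Gpc3, a glypican that binds the ligand and limits the signal, rose by 1.49 in pBOO (SE 0.40, limma adjusted p = 0.0156) and was 1.43 above sham with tolterodine (adjusted p = 0.0314). Lrp2 fell by 2.01 with tolterodine against pBOO (SE 0.51, limma adjusted p = 0.0133), although it was well above background on only 1 tolterodine array. With normexp this call was lost, and the smallest difference under an alternative processing was -0.51. Boc and Gas1, co-receptors of the ligand, had no matched probe, and Cdon was too dim.

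Regulators of Smo and Gli moved in both directions, with 5 rising and 5 falling of 15 between pBOO and sham. These are 33.3% each, beside 20.8% and 21.7% of all genes. Prkacb, a catalytic subunit of protein kinase A, which marks Gli proteins for processing into repressors, rose by 2.61 (SE 0.30, limma adjusted p = 0.000265), although it was well above background on only 1 sham array. Spop, the ubiquitin ligase adaptor for full-length Gli proteins, rose by 1.24 (SE 0.14, adjusted p = 0.000293). Evc, a Smo partner at the base of the cilium, was at least 1.95-fold higher than in sham on the levels used here. No sham array was well above background for Evc, which passed the filter, and so entered the count of 5, through its pBOO arrays. With normexp its call was lost, and its lowest difference under an alternative processing was 0.09. Sufu, which holds Gli proteins in check, fell by 0.71 (SE 0.14, limma adjusted p = 0.00586), from -2.95 ± 0.23 to -3.66 ± 0.03 (SD, n = 3). Grk2, a kinase of Smo, fell by 0.73 (SE 0.11, limma adjusted p = 0.00122) and the protein kinase A subunit Prkar1a by 0.59 (SE 0.17).

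With tolterodine, 5 of these 15 regulators rose and 4 fell against pBOO (33.3% and 26.7%, beside 26% and 15.3% of all genes). Arrb2, a β-arrestin, rose by 1.11 (SE 0.13, limma adjusted p = 0.000244), Zic2, a zinc-finger relative of the Gli factors, by 1.03 (SE 0.14), and Sufu by 0.80 (SE 0.16, adjusted p = 0.00589), with the flagged spot of tolterodine 1 dropped. Spop fell by 0.79 (SE 0.14, limma adjusted p = 0.00284), and the Gli kinase Gsk3b fell by 0.73 (SE 0.13). Against sham 3 rose, Prkacb by 1.88, Zic2 by 0.68 and Arrb2 by 0.57, and Efcab7, which anchors Evc in the cilium, fell by 0.60 (SE 0.11, limma adjusted p = 0.00681). The difference of Sufu from sham was 0.09 (SE 0.16).

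Of 14 genes for the cilium and its transport, 4 rose and 2 fell between pBOO and sham (28.6% and 14.3%). Of all genes 20.8% rose and 21.7% fell, and the median of the 14, -0.07, lay near that of all genes. The 4 include Dync2h1 and Rpgrip1l, which were well above background on no sham array and passed the filter through their pBOO arrays. Bbs1, of the complex that moves membrane proteins in the cilium, rose by 0.87 (SE 0.10, limma adjusted p = 0.000252) and the ciliary GTPase Arl13b by 0.79 (SE 0.12). Dync2h1, the motor of retrograde transport, read -6.46 in sham, -5.01 in pBOO and -6.27 with tolterodine, and was well above background in pBOO alone, which also let it pass the filter, so its calls carry no weight. Ift172, of the transport particle, fell by 0.51 (SE 0.11) and the motor Kif3a by 0.45 (SE 0.14). With tolterodine against pBOO, Bbs1 fell by 1.05 (SE 0.10, limma adjusted p = 8.13e-05) and Arl13b by 0.74, and Ift172 rose by 0.34. The calls of Bbs1 in these comparisons were lost with normexp. Its smallest differences under the alternatives were 0.16 between pBOO and sham and -0.32 between tolterodine and pBOO. Against sham, Ift88 fell by 0.51 (SE 0.16, limma adjusted p = 0.0425), the sole call among the 14.

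Of 10 genes reported elsewhere as Gli targets, 6 rose and 1 fell between pBOO and sham, with a median of 0.84. These are 60% and 10%, beside 20.8% and 21.7% of all genes. Bcl2, which blocks apoptosis, rose by 1.76 (SE 0.14, limma adjusted p = 4.24e-05), from -4.77 ± 0.05 to -3.01 ± 0.18 (SD, n = 3). The cyclin Ccnd2, with the flagged spots of sham 1 and pBOO 2 dropped, rose by 1.56 (SE 0.13), and the growth factor Tgfb2 by 1.48 (SE 0.20). Foxm1, a driver of the cell cycle, fell by 1.01 (SE 0.16, limma adjusted p = 0.00125). With tolterodine against pBOO 1 rose and 4 fell (10% and 40%, beside 26% and 15.3% of all genes). Foxm1 rose by 1.25 (SE 0.16). Among those that fell, Bcl2 fell by 1.57 (SE 0.14), Ccnd2 by 1.40 (SE 0.12) and Osr1 by 0.62 (SE 0.16). Bcl2 was at -4.58 ± 0.21 with tolterodine and did not differ from sham past the threshold (difference 0.19, SE 0.14). Against sham 4 rose, with Spp1, which encodes osteopontin, by 1.66 (SE 0.38), Tgfb2 by 1.04 (SE 0.20) and Igfbp6 by 0.88 (SE 0.21).

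**Figure D4:**
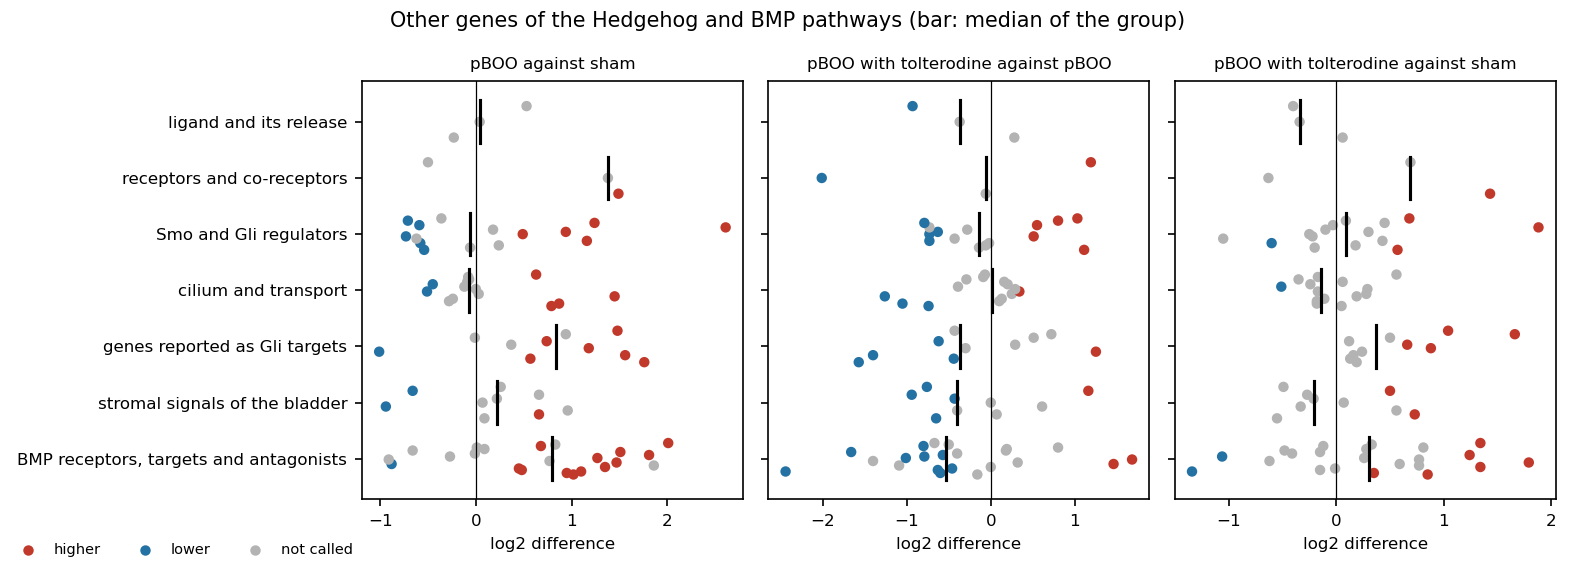
Log2 difference (x axis) of 76 other genes of the Hedgehog and BMP pathways by group of function (y axis) in each comparison; points are genes, coloured where the limma adjusted p is under 0.05, and black bars are medians. Genes reported as Gli targets and BMP genes have medians of 0.84 and 0.80 between pBOO and sham, and -0.37 and -0.54 between tolterodine and pBOO.

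Of 9 stromal signals of the bladder, 1 rose and 2 fell between pBOO and sham (11.1% and 22.2%, beside 20.8% and 21.7% of all genes). Bmp5, which Hedgehog signals induce in bladder stroma, rose by 0.66 (SE 0.19, limma adjusted p = 0.0234), Bmp7 fell by 0.94 (SE 0.23) and Wnt4, a stromal Wnt that acts on the urothelium, fell by 0.66 (SE 0.12, limma adjusted p = 0.00325). With tolterodine against pBOO, Wnt4 rose by 1.16 (SE 0.12, limma adjusted p = 0.000166), from -0.37 ± 0.14 to 0.79 ± 0.11 (SD, n = 3), and 4 others fell: Wnt2b by 0.94, Wnt5a by 0.76, Bmp2 by 0.65 and Wnt11 by 0.43. Against sham Bmp5 rose by 0.73 (SE 0.19) and Wnt4 by 0.50 (SE 0.12). Wnt2 had no matched probe and Fgf16 was too dim.

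BMP receptors, targets and antagonists bear on what lies downstream of Bmp4. Between pBOO and sham 12 of 22 rose and 1 fell, with a median of 0.80. These are 54.5% and 4.55%, beside 20.8% and 21.7% of all genes. The target Id2 rose by 1.81 (SE 0.13, limma adjusted p = 2.99e-05) and Id4 by 1.51 (SE 0.12), whereas Id1 and Id3 did not pass the test, at -0.27 (SE 0.14) and -0.01 (SE 0.23). Twsg1, a modulator of BMP binding, was at least 2.35-fold higher in pBOO on the levels used here (limma adjusted p = 0.00503). The fold is a bound because sham was not well above background for Twsg1 on any array. Its call was lost with normexp and with scan as a block, and its lowest difference under an alternative processing was 0.20. The activin and BMP antagonist Fst fell by 0.88 (SE 0.20). Among the remaining genes that rose were the decoy receptor Bambi, from 0.22 ± 0.62 to 1.32 ± 0.04 (SD, n = 3), and the antagonist Chrd, which rose by 1.35.

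With tolterodine against pBOO, 2 of these 22 rose and 9 fell (9.09% and 40.9%, beside 26% and 15.3% of all genes). Bambi fell by 2.44 (SE 0.26, limma adjusted p = 0.00017), from 1.32 ± 0.04 to -1.11 ± 0.14 (SD, n = 3) and Id4 fell by 1.66 (SE 0.12). Grem1, another secreted antagonist, rose by 1.68 (SE 0.34, limma adjusted p = 0.00469) and Fst by 1.46 (SE 0.20). Id1 fell by 0.79 and Id2 by 0.57, while Id3 stood at -0.40 (SE 0.23) and did not pass. Against sham 6 rose and 2 fell, with Fstl1 higher by 1.79, Chrd by 1.34 and Id2 by 1.24, and with Bambi lower by 1.34 and Id1 by 1.06.

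Over the named genes of the list, calls held under every alternative tried for 18 of 32 between pBOO and sham, 14 of 30 between tolterodine and pBOO, and 7 of 17 between tolterodine and sham. In the first comparison the calls lost under at least 1 alternative were those of Bbs1, Bmp5, Bmp7, Dync2h1, Efcab7, Evc, Fst, Gsk3b, Ift172, Kif3a, Osr1, Prkar1a, Sufu and Twsg1. The 4 calls of Bmp7, Efcab7, Ift172 and Sufu were lost only within the first scan, which holds 1 sham array. In the second they included those of Arl13b, Bbs1, Bmp2, Dync2h1, Evc, Gsk3b, Id2, Ift172, Lrp2, Osr1, Prkar1a, Scube1, Spop, Wnt2b and Wnt5a. In the third they were those of Arrb2, Bmp5, Gpc3, Ift88, Prkacb, Spp1, Tgfb2, Twsg1, Wnt4 and Zic2. No named call changed direction under an alternative.

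Markers of the bladder's cell types also moved with the groups. Of all genes, 20.8% rose and 21.7% fell between pBOO and sham, and 26% rose and 15.3% fell between tolterodine and pBOO. Between tolterodine and sham 17.8% rose and 6.59% fell. In bulk tissue fewer cells of a type and less RNA per cell cannot be told apart. Summed linear signals (75th percentile = 1) cover the tested markers with no flagged spot on any array. Between pBOO and sham 4 of 5 basal urothelial markers fell, and the sum of 4 of them, without Krt14, was 14.5 to 23.4 in sham, 7.66 to 8.32 in pBOO and 15.9 to 17.0 with tolterodine. Of 12 general urothelial markers 6 fell in pBOO. The sum over 6 of the 12, Krt8, Krt20, Upk1b, Epcam, Gata3 and Pparg, leaves out Krt7, Krt18, Cdh1, Elf3 and Cldn4, which fell, and was 29.6 to 40.2 in sham, 15.8 to 35.1 in pBOO and 17.5 to 21.4 with tolterodine. With tolterodine, 4 of the 5 basal markers rose against pBOO, and of the 12 urothelial markers 4 rose and 1 fell against pBOO, and 1 rose and 4 fell against sham. Krt20, one of these 12, fell by 4.98 between pBOO and tolterodine (SE 0.76, limma adjusted p = 0.00113) and fell by 4.18 between sham and tolterodine (adjusted p = 0.00600), while the basal keratin Krt14 (tolterodine 1 flagged) rose by 2.60 with tolterodine against pBOO and Upk1b, a plaque protein of umbrella cells, stood at -0.58 (adjusted p = 0.0897).

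Smooth muscle markers rose in 8 of 9 cases between pBOO and sham (88.9%, beside 20.8% of all genes). The sums over 7 of them leave out Cnn1 and Cald1 and include Acta2, the marker that did not pass the test. They were 57.7 to 75.2 in sham, 92.6 to 106 in pBOO and 60.4 to 95.8 with tolterodine. The 95.8 is that of tolterodine 3, alone in its scan, and tolterodine 1 and 2 had 69.1 and 60.4. With tolterodine against pBOO, 8 of 9 smooth muscle markers fell. Fibroblast and stroma markers rose in 6 of 11, with sums over 10 of them, without Col1a1, of 26.1 to 36.7, 60.4 to 65.4 and 34.9 to 40.5. Endothelial markers rose in 4 of 7, with sums of 3.31 to 3.40, 3.77 to 5.97 and 3.68 to 4.15. Macrophage markers fell in 7 of 8, with sums of 26.6 to 34.9, 14.1 to 15.4 and 62.9 to 73.2. Markers of dividing cells fell in 6 of 6, with sums of 7.23 to 12.2, 1.90 to 2.60 and 9.58 to 10.3. The pBOO arrays thus had more signal of muscle and stroma, where Smo, Gli1 and Gli2 are known to be expressed. For the urothelium, the source of Hedgehog ligands, the basal sums were lower in pBOO. Of the 12 general markers 6 fell and 0 rose. The general sums overlapped with sham, but they leave out Krt7, Krt18, Cdh1, Elf3 and Cldn4, which fell. Shh and the brighter probe of Ihh also overlapped between pBOO and sham. The part of the marker shifts in the differences of the Hedgehog genes was not tested.

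Within scans, the members' differences from sham had these values. In the first scan (1 sham array against 3 pBOO arrays) they were 0.71 for Ptch1, 1.40 for Smo, 0.51 for Gli1, 0.32 for Bmp4 and -0.29 for Shh. In the second (2 arrays of sham and 2 with tolterodine) they were -4.67 for Ihh, 0.60 for Ptch1, 1.06 for Smo, 0.60 for Gli1, 0.71 for Gli2 and 0.10 for Bmp4. The difference between tolterodine and pBOO can be taken only across scans. With scan as a term it was -7.00 for Ihh, 1.5 for Shh, -0.34 for Smo, -0.11 for Ptch1, -1.92 for Gli2, 0.10 for Gli1 and -0.22 for Bmp4. These values link the scans through sham 1 against sham 2 and sham 3, and sham 1 stood apart for Ihh. Tolterodine 3, alone in its scan, adds nothing to them.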

How the data were processed

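Bladder RNA from 9 arrays was used, 3 per group by title, at 3 weeks. The deposited values are spot intensities. Per the file headers, Feature Extraction 11.0.1.1 made the processed intensity by subtracting background and removing spatial trends, with no normalization between arrays (the submitters' processing notes name version 9.1). Raw medians of spot and local background were likewise deposited as intensities, and the authors' deposited flags hold other values, 0 or 1.

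For 42877 non-control spots the log2 of the deposited signal was taken, minus each array's 75th percentile. Flagged spots were set to missing. Probe accessions were matched to RefSeq symbols (GRCr8), which named 18005 of 30367 probes. A probe had to be well above background on at least 3 arrays, and a gene unflagged on at least 2 arrays per group. The brightest such probe stood for a gene, which left 11049 genes. The members and gene lists were chosen with earlier results of these data known. A single limma fit (limma 3.58.1 in R 4.3.3, data.table version 1.17.8) over the 9 arrays gave all differences, two-sided, with Benjamini-Hochberg adjustment over all genes and a threshold of 0.05. Precision is limited by the number of arrays, with a median SE of 0.171. The fit was tested on simulated data.

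Named from the list of 110 genes were, per group of function and comparison, up to 3 genes called higher and 3 called lower with the largest difference, and Sufu, Boc, Cdon, Gas1, Wnt2, Wnt4, Fgf16, Bmp5, Id1, Id2 and Id3 in any case. Some genes that the rule names are not reported here. Dhh, Disp1, Wnt11 and the markers Krt14, Krt18, Upk1b and Acta2 were named outside this rule, after their values were seen. Alternatives were array median and quantile scaling, normexp with an offset of 50, flagged spots kept, no filter on dim probes, the mean of probes, scan as a fixed or random block or within scans, a replicate block, only the 6 arrays compared, and leaving out each array. Replicate numbers do not pair the samples.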

Additional observations from a re-analysis of the deposited data

How the results depend on the processing

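Between pBOO and sham, and between tolterodine and pBOO, 4693 and 4564 genes were called, and between tolterodine and sham 2693. With normexp these counts were 3026, 3000 and 961, and 10 of the wider list in place of 20 in the last comparison. In that comparison scan as a block gave 4426 genes and 39 of the list, scan as a random block 4279 and 31, and within the second scan 5672 and 49. Within the first scan, where sham is 1 array assumed to vary like the pBOO arrays, 2798 genes were called between pBOO and sham. Leaving out 1 array gave 1412 (without sham 3) to 3785 (without sham 1) genes and 12 (without tolterodine 2) to 30 (without sham 1) of the list between tolterodine and sham. It gave 3406 to 5141 genes and 33 to 47 of the list between pBOO and sham, and 3396 to 4153 and 25 to 35 between tolterodine and pBOO. Genes called between tolterodine and sham were 1965 higher and 728 lower, against 1455 and 1460 with array median scaling and 1411 and 1016 with quantile scaling. Between tolterodine and pBOO they were 2872 and 1692, against 2493 and 2243 with quantile scaling.

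The difference of Ptch1 between pBOO and sham reversed with normexp, to -0.13, where the offset of 50 exceeds its processed signal on every array. The replicate block, tried although same-numbered arrays did not deviate together (correlations from -0.0799 to 0.178), gave 4346, 4225 and 2332 genes and 43, 35 and 20 of the list. Of 350 values of the members under the alternatives, 15 had the opposite sign, in 6 of 21 differences: Shh and Ptch1 between pBOO and sham, Ptch1 and Gli1 between tolterodine and pBOO, and Ptch1 and Bmp4 between tolterodine and sham. The causes were not tested. Probes near background, such as that of Ptch1, limit what can be read of low genes.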
